A study of Homo sapiens with 8 samples.

Results

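Interferon-stimulated genes are the transcripts that cells switch on when an interferon binds its receptor or when cytosolic RNA or DNA is sensed. The set examined here held 46 such genes, chosen by name, and 45 of them could be measured among 19775 genes on the arrays. STAT2 had no probe set with a single symbol in the annotation used and was not analysed here. Expression was measured in HuCCT1, an established human bile duct cancer cell line, on 4 arrays of cells with a control shRNA (the design text calls it scrambled) and 4 arrays of cells with YAP shRNA 1, a hairpin against YAP1. YAP1 encodes the transcriptional coactivator at the end of the Hippo pathway. Both groups received doxycycline at 100 ng/ml, begun 3 days before seeding, to switch the hairpins on. One hairpin stands for the knockdown, so the loss of YAP1 and any other action of that hairpin cannot be told apart. The labels do not say whether replicates were separate cultures, so each p-value reflects the spread among these arrays, which may be technical. The series title speaks of YAP overexpression, whereas YAP1 was lower on every YAP shRNA array, at 10.50 ± 0.0702 against 12.64 ± 0.0860 on the log2 scale (mean ± SD, 4 arrays each; an exact permutation test, two-sided, gave its smallest possible p of 0.0286).

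Type I and type III interferons act through receptor-bound Janus kinases on a factor made of STAT proteins and IRF9, which binds the interferon-stimulated response element in promoters. Type II interferon acts through STAT dimers on a second element, called GAS. The genes so induced include sensors of foreign nucleic acid, effectors that block viral entry, replication or release, transcription factors that feed back on the response, and enzymes of the ISG15, ubiquitin and ADP-ribose systems. Epithelial and tumour cells carry this programme and often express part of it without added interferon.

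The response element is shown first, because it marks most of these genes. The genes were chosen by name and not by this element, but the factor that induces such genes binds it. A high share thus comes with the choice of genes, and the motif was itself picked after values were seen. RefSeq windows of 300 bases (GRCh38.p14, 250 before the transcription start and 50 after it) existed for 38 of the 46 genes. The core GAAANNGAAA, searched on both strands, was present in a window of 27 of those 38, or 71.1%, and in 4.38% of all 27305 genes with a window (3.57% of 35116 windows). Stretches before the start sites of 5 genes that rose, 3 that were not called changed and the 1 that fell follow, read along the strand of the gene with each core in capitals. These were picked after their values were seen. They lie outside RefSeq genes, except that of GBP1, which overlaps a locus known only by a LOC name.
IFI44L, chr1:78620350-78620409, plus strand: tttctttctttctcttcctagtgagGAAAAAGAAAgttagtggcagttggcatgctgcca
IFI44, chr1:78649746-78649788, plus strand: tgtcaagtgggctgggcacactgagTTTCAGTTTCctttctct
IFIH1, chr2:162318685-162318730, minus strand: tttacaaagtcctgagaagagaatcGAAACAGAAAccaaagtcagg
OAS3, chr12:112938437-112938473, plus strand: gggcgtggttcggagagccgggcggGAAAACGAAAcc
PARP14, chr3:122680785-122680838, plus strand: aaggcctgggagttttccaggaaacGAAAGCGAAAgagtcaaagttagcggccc
ISG15, chr1:1013365-1013424, plus strand: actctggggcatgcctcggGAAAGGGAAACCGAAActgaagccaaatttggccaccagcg
IFI6, chr1:27672251-27672310, minus strand: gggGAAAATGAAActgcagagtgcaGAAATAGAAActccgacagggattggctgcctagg
EPSTI1, chr13:42992257-42992316, minus strand: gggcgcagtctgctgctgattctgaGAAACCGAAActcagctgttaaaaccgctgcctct
GBP1, chr1:89065301-89065360, minus strand: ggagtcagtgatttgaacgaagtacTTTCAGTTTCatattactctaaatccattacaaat
The same core thus stood before genes that rose, before genes that were not called, and before the gene that fell. Of 27 measured genes with the core, 17 rose, 1 fell and 9 were not called. Of 10 measured genes with a window but no core in it, 6 rose, among them CMPK2, OAS1, IFI35 and XAF1. Medians of the log2 fold change were 0.25 with the core and 0.29 without. Among genes outside the set, 10.9% of 586 with the core rose, against 9.04% of 14761 without it. The GAS core TTCNNNGAA was present for 13 of the 38 genes, or 34.2%, against 9.38% of all genes, and 9 of the 13 measured rose. CATTCC, the site bound by the TEAD partners of YAP, was present for 7 of 38, or 18.4%, against 16.7%. A match is only a stretch of letters, and GAS and GAAANNGAAA matches can overlap.

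Of the 45 measured genes, 27 rose with the YAP shRNA, 1 fell and 17 were not called. A call here is a Benjamini-Hochberg adjusted p below 0.05 in limma over all 19775 genes. The risen genes made up 60.0% of the set, where 9.49% of all genes rose, 7.17% fell and 16.7% were called in either direction. The median log2 fold change (YAP shRNA minus control) was 0.27, against 0.01 over all genes. The changes were small: the risen genes lay between 0.14 and 1.19 with a median of 0.39, and 23 of the 27 rose by less than 1.5-fold. For 26 of the 45 genes, or 57.8%, every YAP shRNA array lay above every control array, as it did for 13.4% of all genes. These are counts over a set chosen with earlier results known, and no test of the set was made.

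**Figure D1:**
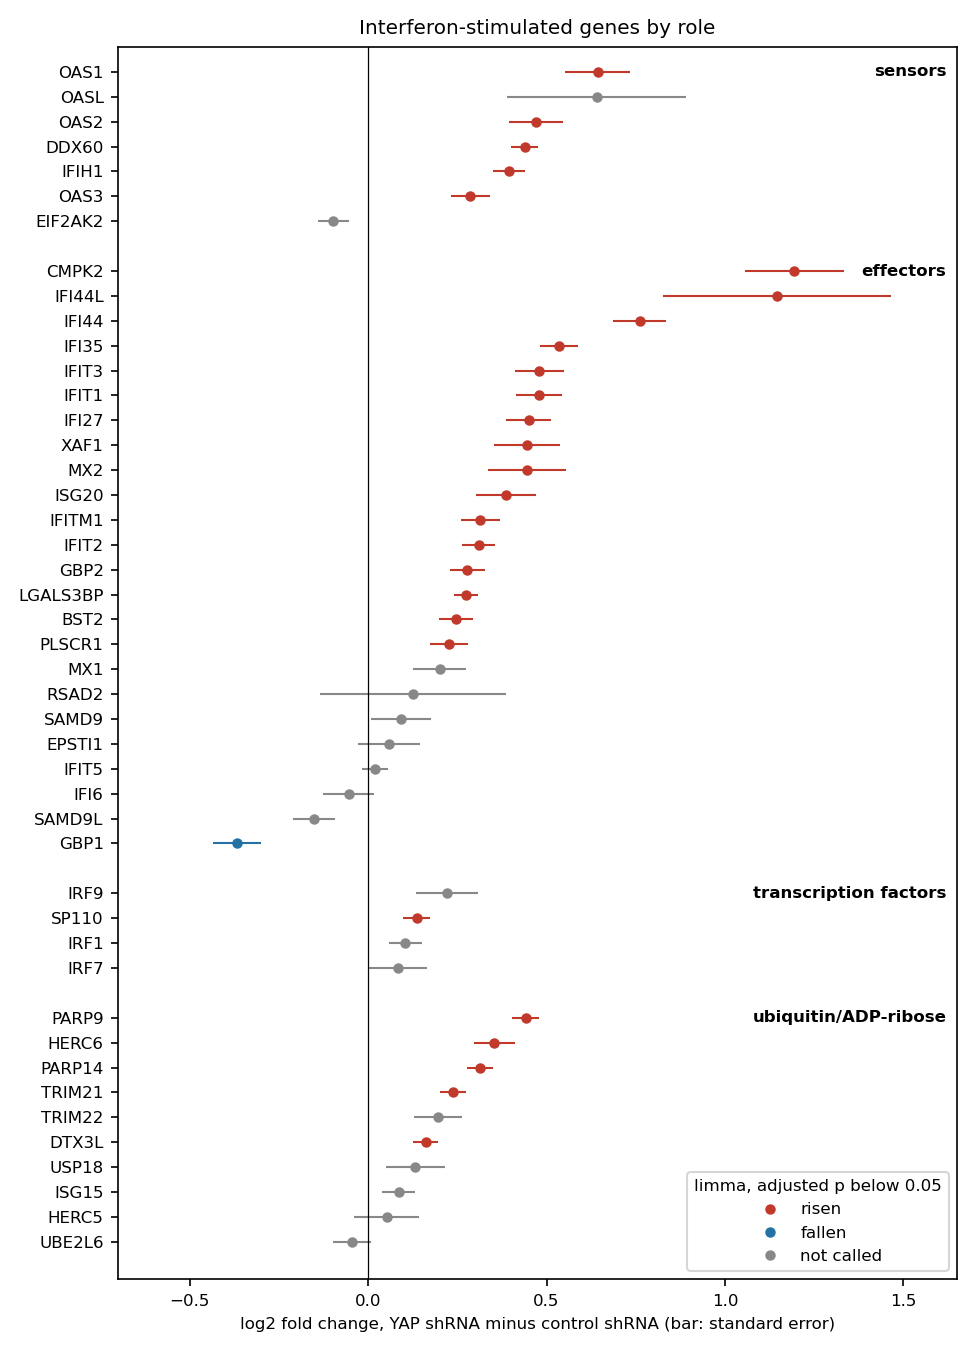
The log2 fold change (YAP shRNA minus control shRNA) of 45 interferon-stimulated genes on the horizontal axis, grouped by role, with bars for the limma standard error. Genes are sorted by log2 fold change within each role, so large rises stand at the top. OASL, not called, lies among the risen sensors. CMPK2 and IFI44L lie furthest to the right at 1.19 and 1.15, and GBP1 at -0.37 is the one fallen gene.

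Most sensors of double-stranded RNA rose: 5 of 7, or 71.4%, where 9.49% of all genes rose. OAS1, an enzyme that on binding double-stranded RNA makes the oligoadenylate messenger of RNase L, read 8.62, 8.52, 8.27 and 8.74 on control arrays 1 to 4 and 9.18, 9.21, 9.12 and 9.22 on YAP shRNA arrays 1 to 4. The groups did not overlap, and the rise was 1.56-fold (log2 fold change 0.64, standard error 0.0910, limma adjusted p = 0.00182). Its other probe set gave 0.74. OAS2, of the same enzyme family, read 8.37, 8.17, 8.14 and 8.23 on control arrays and 8.60, 8.69, 8.62 and 8.87 on YAP shRNA arrays. It too was higher on all YAP shRNA arrays, by 1.39-fold (limma adjusted p = 0.00323). OAS3, the third of the family, rose by 0.29, but its mean over probe sets gave 0.16 and did not pass (limma adjusted p = 0.109). The other OAS3 probe set in that mean stood at a level of 5.49 and gave 0.04. IFIH1, the MDA5 helicase that detects long double-stranded RNA, rose by 0.39, and DDX60, a related helicase, by 0.44. OASL, an inactive relative of the OAS enzymes, had a log2 fold change as high as that of OAS1, 0.64, and did not pass (limma adjusted p = 0.126). Its control arrays read 5.88, 6.26, 6.29 and 7.19, and replicate 4 lay among the YAP shRNA values, which spanned 6.86 to 7.26. Without control shRNA replicate 4 it stood at 0.90 (limma adjusted p = 0.00346). The other OASL probe set, at a mean level of 6.15, gave 0.27 on all arrays and did not pass (limma adjusted p = 0.426). The mean over its probe sets gave 0.45 (limma adjusted p = 0.188). EIF2AK2, the kinase PKR that halts translation on binding double-stranded RNA, stood at -0.10 and was not called (limma adjusted p = 0.176), although all its YAP shRNA arrays lay below the control arrays.

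Effectors held the widest range of changes, from the largest rises to the only fall. Of 24, 16 rose (66.7%, against 9.49% of all genes), 1 fell and 7 were not called. CMPK2, a mitochondrial nucleotide kinase, read 6.36, 6.50, 6.12 and 6.84 on control arrays 1 to 4 and 7.62, 7.79, 7.52 and 7.68 on YAP shRNA arrays 1 to 4. With no overlap between groups, it rose 2.29-fold (log2 fold change 1.19, standard error 0.139, limma adjusted p = 0.000664). IFI44L read 5.17, 5.06, 4.57 and 6.21 on control arrays and 6.52, 6.74, 6.03 and 6.30 on YAP shRNA arrays. Here the groups overlapped, since control shRNA replicate 4 lay above YAP shRNA replicate 3. The rise was 2.21-fold (standard error 0.319 on the log2 scale, limma adjusted p = 0.0415). That call was lost when any array other than control shRNA replicate 4 was left out (limma adjusted p between 0.0557 and 0.109), and without control shRNA replicate 4 the log2 fold change was 1.47 (0.00229). IFI44, the cytoplasmic paralog of IFI44L, read 10.40, 10.40, 10.38 and 10.71 on control arrays and 11.22, 11.22, 11.23 and 11.27 on YAP shRNA arrays. It rose 1.69-fold, with YAP shRNA arrays that differed little among themselves (SD 0.0246; limma adjusted p = 0.000285).

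The IFIT genes, whose tetratricopeptide proteins bind viral RNA, rose in 3 of 4 cases. IFIT1 read 8.66, 8.51, 8.51 and 8.76 on control arrays and 9.12, 9.12, 9.01 and 9.12 on YAP shRNA arrays. IFIT3, which stabilises IFIT1 on RNA, read 9.52, 9.28, 9.33 and 9.22 on control arrays and 9.91, 9.85, 9.73 and 9.79 on YAP shRNA arrays. Neither gene overlapped between groups, and both rose by 0.48 (limma adjusted p = 0.00153 and 0.00209). IFIT2 rose by 0.31 (0.00224). IFIT5 stood at 0.02 with a standard error of 0.0371 on its brighter probe set, while its other probe set gave 0.24, and neither passed.

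Other antiviral effectors rose by less than 1.5-fold. IFI35, a leucine zipper protein that binds NMI, read 9.48, 9.50, 9.38 and 9.40 on control arrays and 9.93, 10.01, 9.89 and 10.08 on YAP shRNA arrays, a rise of 1.45-fold (limma adjusted p = 0.000322). IFI27, a small membrane protein of mitochondria, read 11.79, 11.91, 11.85 and 12.09 on control arrays and 12.37, 12.32, 12.40 and 12.35 on YAP shRNA arrays, and rose by 0.45 (0.00180). For both genes the lowest YAP shRNA array lay above the highest control array. XAF1, which counters the caspase inhibitor XIAP, read 9.19, 8.94, 9.28 and 8.88 on control arrays and 9.63, 9.43, 9.49 and 9.52 on YAP shRNA arrays, and rose by 0.45 (limma adjusted p = 0.0123). All 3 of its probe sets rose, by 0.43 to 0.53, but the one with 0.43 was dim, at a mean level of 3.75. MX2, a dynamin-like GTPase, read 4.82, 4.94, 4.76 and 5.19 on control arrays and 5.29, 5.59, 5.39 and 5.22 on YAP shRNA arrays. It was dim, its groups nearly met, and its rise of 0.45 (limma adjusted p = 0.0249) was lost on leaving out control shRNA replicate 1, 2 or 3 or YAP shRNA replicate 2 or 3 (up to 0.0664). ISG20, an exonuclease, rose by 0.39, IFITM1, which blocks viral entry, by 0.31, and BST2, the tetherin that holds budding virus at the cell surface, by 0.25. LGALS3BP, a secreted galectin ligand, rose by 0.27. GBP2, a guanylate-binding GTPase, rose by 0.28, a call lost with the mean over its probe sets (0.21, limma adjusted p = 0.154). The other GBP2 probe set in that mean stood at a level of 4.70 and gave 0.13. PLSCR1, a phospholipid scramblase, rose by 0.23 on its brightest probe set. That call was lost without any one of control shRNA replicate 2 and YAP shRNA replicates 2, 3 and 4 (limma adjusted p up to 0.0651), and its other probe sets gave 0.10 and, at a mean level of 2.94, -0.23. Its mean over probe sets was 0.031 (limma adjusted p = 0.720).

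**Figure D2:**
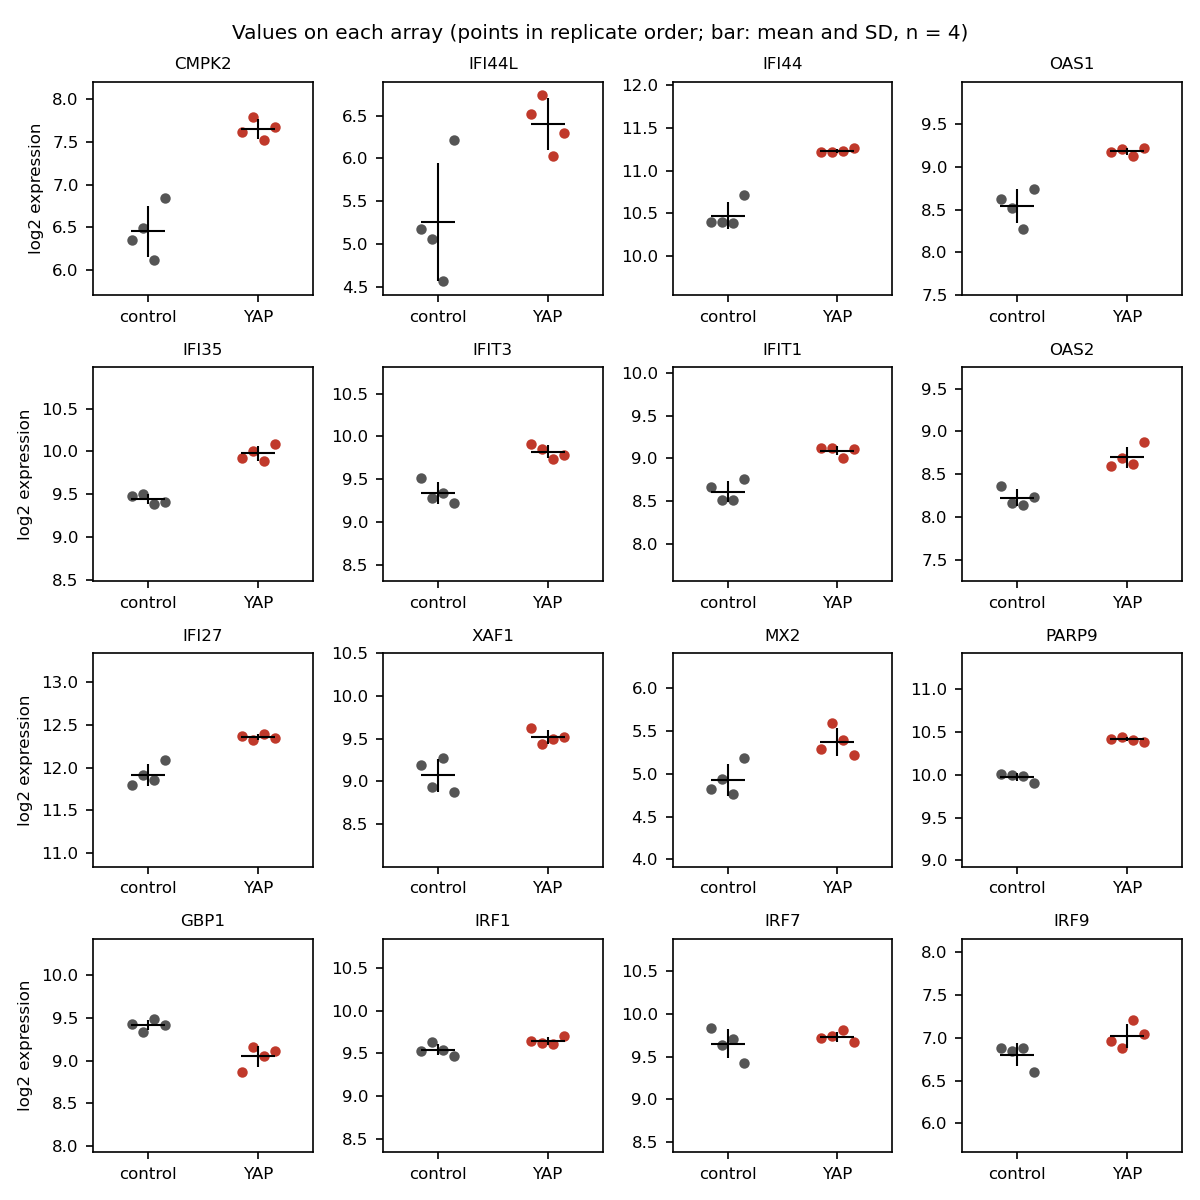
Log2 expression on each array for the 12 called genes with the largest changes, for GBP1 and for IRF1, IRF7 and IRF9, with each panel spanning the same height on the log2 scale. Points stand in replicate order 1 to 4 within a group, and bars give the mean and SD (n = 4). Of the 12 largest called changes, 11 show no overlap, IFI44L being the exception. Little overlap is largely built into a choice of called genes with large changes.

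Several of the best known effectors did not pass. MX1, the dynamin-like GTPase that traps viral nucleocapsids, stood at 0.20 (limma adjusted p = 0.110). RSAD2, the radical enzyme viperin that makes a chain-terminating nucleotide, read 5.87, 5.45, 5.64 and 6.54 on control arrays and 5.54, 6.37, 6.26 and 5.83 on YAP shRNA arrays. The groups overlapped, at a log2 fold change of 0.13 (standard error 0.259). SAMD9, EPSTI1 and IFI6, an inhibitor of apoptosis, had log2 fold changes of 0.09, 0.06 and -0.05. SAMD9L, the paralog of SAMD9, stood at -0.15 on its brightest probe set (limma adjusted p = 0.129), and its other probe sets gave -0.14 and -0.08. Without control shRNA replicate 4, MX1 and SAMD9 passed, at 0.25 and 0.18 (limma adjusted p = 0.0463 and 0.0440).

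GBP1 was the only one of the 45 that fell. This guanylate-binding GTPase, a classical target of type II interferon, read 9.43, 9.34, 9.48 and 9.41 on control arrays and 8.87, 9.16, 9.06 and 9.11 on YAP shRNA arrays. Every YAP shRNA array lay below every control array, a fall of 1.29-fold (log2 fold change -0.37, standard error 0.0669, limma adjusted p = 0.00636). Probe sets of close relatives can share sequence, and the one used here is of a kind prone to that. Its other 2 bright probe sets fell further, with log2 fold changes of -0.59 and -0.52, and a dim one at a level of 3.23 gave 0.02.

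The transcription factors of the response changed least. Of the 4 measured, only SP110, a nuclear body protein, was called, with a rise of 0.14 that was lost when any array other than control shRNA replicate 1 was left out (limma adjusted p up to 0.112) and with the mean over probe sets (0.062, adjusted p = 0.357). IRF9, the DNA-binding part of the interferon-activated factor, read 6.88, 6.85, 6.89 and 6.61 on control arrays and 6.96, 6.88, 7.21 and 7.04 on YAP shRNA arrays. IRF1, induced mainly by type II interferon, read 9.53, 9.63, 9.53 and 9.47 on control arrays and 9.65, 9.63, 9.61 and 9.71 on YAP shRNA arrays. IRF7, the main amplifier of type I interferon production, read 9.83, 9.64, 9.71 and 9.43 on control arrays and 9.72, 9.74, 9.81 and 9.67 on YAP shRNA arrays. All 3 overlapped between groups, with log2 fold changes of 0.22, 0.10 and 0.08 and limma adjusted p of 0.130, 0.174 and 0.573. The median of the 4 was 0.12, against 0.44 for the sensors, 0.29 for the effectors and 0.18 for the ubiquitin and ADP-ribose genes, and the differences between these medians were not tested.

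Among the enzymes of protein modification, the ADP-ribose genes rose and ISG15, UBE2L6, HERC5 and USP18 of the ISG15 system did not pass. Of these 10 genes 5 rose, or 50.0%, against 9.49% of all genes. PARP9, an ADP-ribosyltransferase that pairs with the ubiquitin ligase DTX3L, read 10.01, 10.00, 9.98 and 9.90 on control arrays and 10.42, 10.45, 10.41 and 10.39 on YAP shRNA arrays. It rose 1.36-fold with no overlap (limma adjusted p = 0.000172), although a dimmer probe set gave 0.19 and did not pass. PARP14, a mono-ADP-ribosyltransferase, rose by 0.31 (0.000608). DTX3L rose by 0.16, and its call was lost without YAP shRNA replicate 2 or 3 (limma adjusted p up to 0.0553). The ubiquitin ligase TRIM21, which is also a cytosolic antibody receptor, rose by 0.24. HERC6, a HECT-domain ligase, rose by 0.35 on its brightest probe set, while the mean over its probe sets gave 0.11 and did not pass (limma adjusted p = 0.219). The other HERC6 probe set in that mean was dim, at a level of 3.26, and gave -0.13. ISG15, the ubiquitin-like modifier itself, stood at 0.09 with a standard error of 0.0466. UBE2L6, its conjugating enzyme, stood at -0.05, and HERC5, its main ligase, at 0.05 and a level of 3.50. USP18, which removes ISG15 and damps the receptor, stood at 0.13, or at 0.21 without control shRNA replicate 4, where it passed (limma adjusted p = 0.0446). TRIM22, another ligase, had 0.20 (limma adjusted p = 0.0900).

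**Figure D3:**
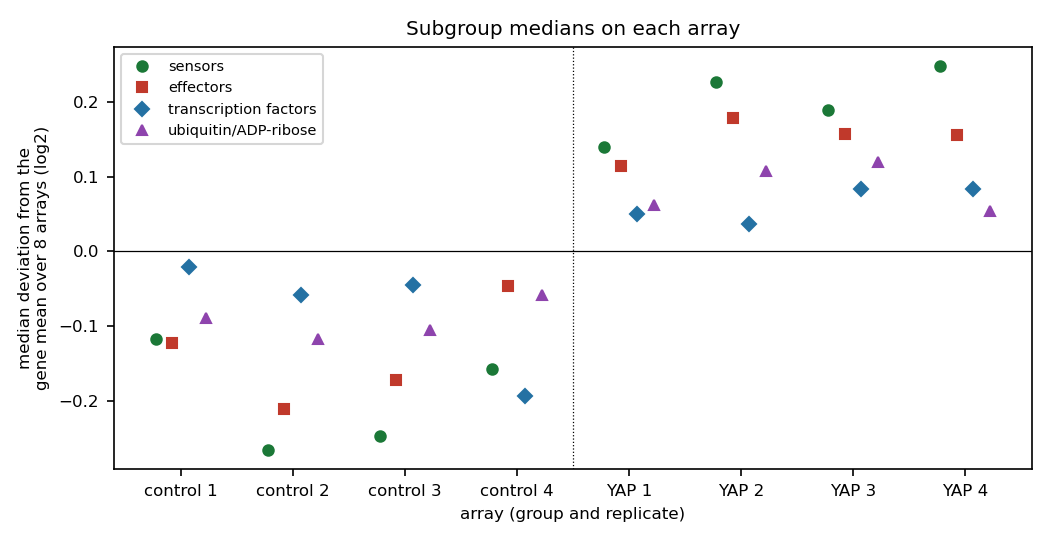
For each array, the median over a subgroup's genes of the deviation from the gene's mean over the 8 arrays, in log2 units, with control arrays left of the dotted line and YAP shRNA arrays right of it. All 4 subgroups lie below 0 on every control array and above 0 on every YAP shRNA array, and control array 4 has the highest effector median and the lowest transcription factor median of the control arrays, at -0.05 and -0.19.

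Control shRNA replicate 4 stood apart from the other control arrays over all genes, and the set shared in this. Its mean correlation with the other control arrays was 0.9967, against 0.9978 to 0.9980 for those. It gave the highest control value for 46.7% of the 45 genes and for 40.2% of all genes, shares that lie close together. On it 37.8% of the set and 57.3% of all genes lay above their own mean over the 8 arrays. On the other control arrays the same shares were 8.89% to 15.6% of the set and 42.2% to 48.0% of all genes, and on the YAP shRNA arrays 80.0% to 91.1% and 48.7% to 59.0%. Without it, 30 of the 45 rose (66.7%, where 11.4% of all genes rose) and the fall of GBP1 kept its call. OASL, MX1, SAMD9 and USP18 were gained and SP110 was lost.

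The set could also be read by brightness, the mean log2 level over the 8 arrays. Of 37 genes above the median level of all genes, 7.44, 24 rose (64.9%, where 15.2% of all genes above it rose). Of 8 below it, 3 rose (37.5%, where 3.77% rose): CMPK2, IFI44L and MX2. The other 5 were OASL, RSAD2, TRIM22, IRF9 and HERC5. The 3 rises below the median dropped to 1 on leaving out control shRNA replicate 1, 2 or 3 or YAP shRNA replicate 2 or 3, and became 4 without control shRNA replicate 4. The only gene of the set that rose at least 2-fold besides CMPK2 was IFI44L, and both were dim. Levels of different probe sets are not comparable as amounts of RNA.

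**Figure D4:**
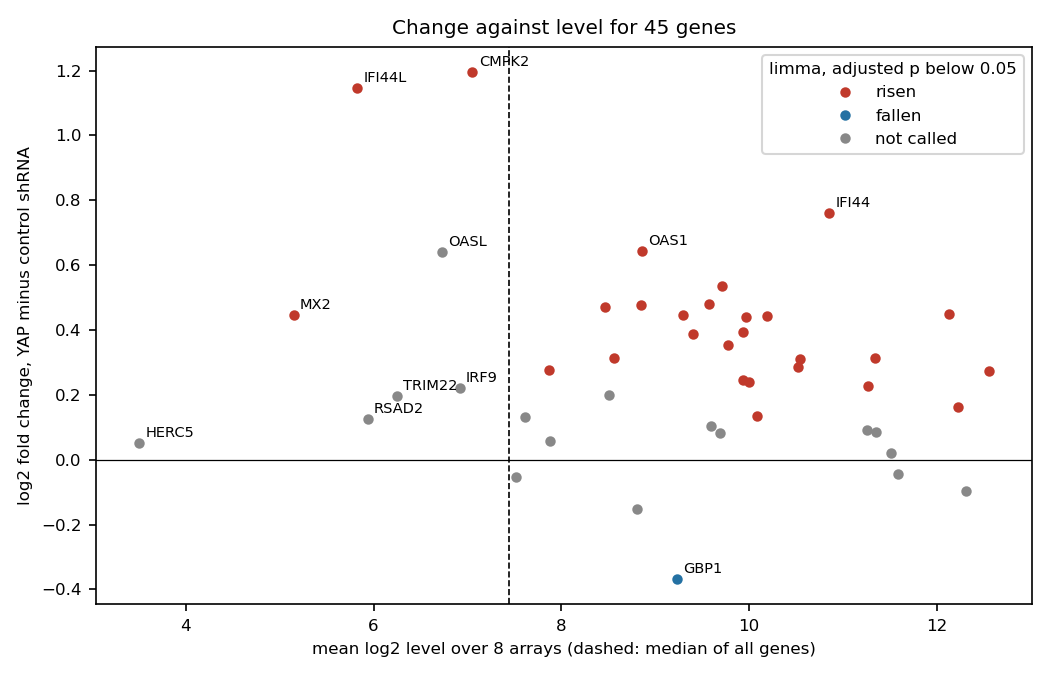
The log2 fold change of each of 45 genes against its mean log2 level over 8 arrays, with a dashed line at the median level of all genes, 7.44. The rises above 1 lie left of the line, while 24 of the 37 genes to its right rose, by 0.14 to 0.76.

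Many of these genes sit side by side in families, and neighbours did not always move alike. The set held 13 pairs of genes consecutive among its members on a chromosome with starts within 200 kb. CMPK2 and RSAD2, at 1.19 and 0.13, differed by 1.07 in log2 fold change (two-sided exact permutation p = 0.0286, 0.0620 adjusted over the 13 pairs). GBP1 and GBP2 moved in opposite directions, at -0.37 and 0.28, a difference of -0.64 (exact permutation p = 0.0286, adjusted 0.0620). IFIT1 and IFIT5 differed by 0.46 with the same p values. The pairs PARP9 and DTX3L, DTX3L and PARP14, and SAMD9 and SAMD9L also reached 0.0286, with differences of 0.28, -0.15 and 0.24. IFIT3 and IFIT1 were the closest pair, with a difference of 0.0018. With 4 arrays a group, no pair could fall below 0.0286, and none passed after adjustment. These differences are between the brightest probe sets of the genes, and other probe sets were not paired. Other probe sets of PARP9 and IFIT5 gave 0.19 and 0.24, nearer to DTX3L and IFIT1. Other bright probe sets of GBP1 gave -0.59 and -0.52, further from GBP2. Both genes of a pair rose in 7 of the 13 pairs, counting the overlapping pairs of the IFIT, OAS and PARP9 clusters separately.

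**Figure D5:**
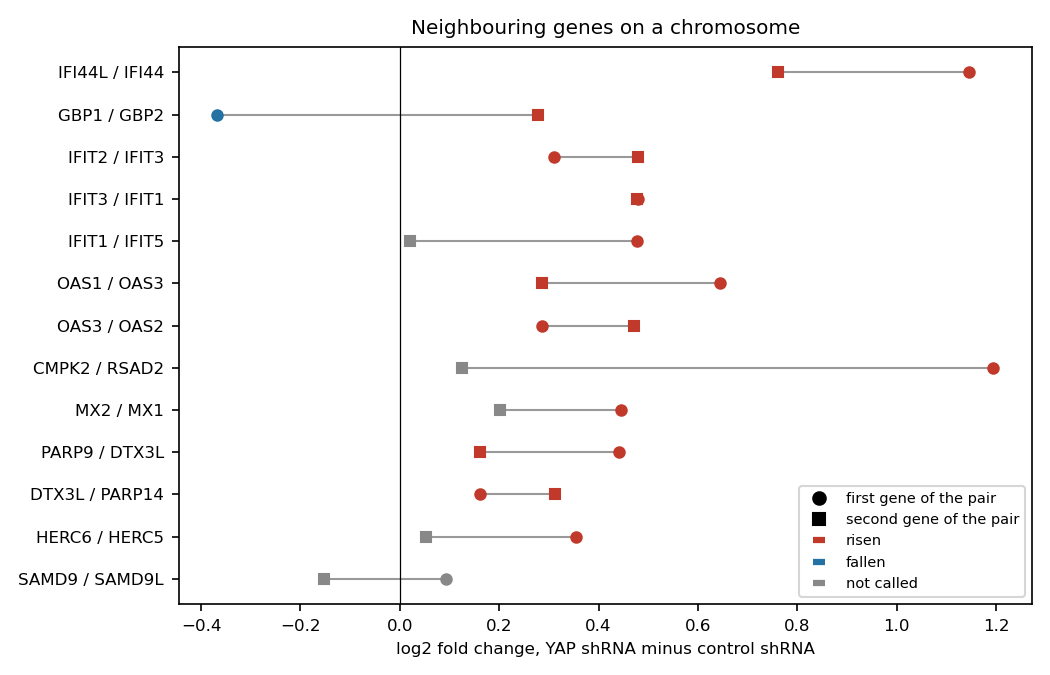
Log2 fold changes of the 13 neighbouring pairs, with a circle for the first gene along the chromosome, a square for the second and a line between them. CMPK2 and RSAD2 have the longest line, and GBP1 and GBP2 are joined across 0.

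The rest of the interferon pathway was described from lists drawn up by role. Of 61 measured genes on 6 lists, 18 rose (29.5%, where 9.49% of all genes rose) and 2 fell. The interferon genes themselves were dim: group means of the 9 measured reached at most 7.13, and 0 rose. IFNB1, the first type I interferon made on sensing, stood at -0.25 (limma adjusted p = 0.447) with array values of 3.41 to 4.46. IFNK, an epithelial type I interferon, fell by 0.73, with 6.05 ± 0.327 in control arrays and 5.32 ± 0.141 with the YAP shRNA (mean ± SD, 4 arrays each; adjusted p = 0.0123 by limma). Of 6 receptor subunits, IFNGR2, the signalling chain for type II interferon, rose by 0.33, and IFNLR1, of the type III receptor, rose by 0.18. The IFNLR1 call was lost when any one array was left out (limma adjusted p between 0.0547 and 0.0959) and with the mean over probe sets (0.056, adjusted p = 0.750). Among the 3 measured receptor kinases JAK2, which serves the type II receptor, fell by 0.24 (0.0152), a call lost with the mean over its probe sets (-0.19, limma adjusted p = 0.215).

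Upstream sensing rose in part, by 5 of 12 genes, where 9.49% of all genes and 15.2% of those above the median level rose. TLR3, the endosomal receptor for double-stranded RNA, rose by 0.54 and its adaptor TICAM1 by 0.39. RIGI, the cytosolic sensor of RNA with a triphosphate end, rose by 0.39 (limma adjusted p = 0.00139) and STING1, the adaptor for cytosolic DNA, by 0.40 (0.0164). IRF3, which these pathways activate, rose by 0.24, a call lost without any one of control shRNA replicate 2 and YAP shRNA replicates 1, 2 and 3 (limma adjusted p up to 0.0560). CGAS, the enzyme that senses DNA and signals to STING1, stood at -0.02 (0.881).

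Among negative regulators, 2 of 7 rose, where 9.49% of all genes and 15.2% of genes above the median level rose. These were the phosphatase PTPN6, by 0.30, and the repressor IRF2, by 0.26. Their calls were lost without most single arrays: IRF2 kept its call only when control shRNA replicate 4 was left out, and PTPN6 only when control shRNA replicate 1 or 4 was (limma adjusted p up to 0.113 and 0.102 otherwise).

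Of 24 other interferon-stimulated genes, 9 rose and 0 fell by limma (14 of 24 had an unadjusted p below 0.05). Over all 19775 genes, 9.49% rose, 7.17% fell and 5785 had an unadjusted p below 0.05. RTP4 rose most, by 0.96 (limma adjusted p = 3.66e-05), then RNF213, a giant ubiquitin ligase, by 0.68, and the apolipoprotein L genes APOL6 and APOL1 by 0.54 and 0.47. HELZ2 rose by 0.38 (0.16 with the mean over probe sets, limma adjusted p = 0.0402) and the nuclear DNA sensor IFI16 by 0.28. PML, TRIM25 and NMI rose by 0.28, 0.21 and 0.20, with calls that were lost without some single arrays (limma adjusted p up to 0.108, 0.0836 and 0.0947). PML kept its call without control shRNA replicate 1 or YAP shRNA replicate 2, TRIM25 without control shRNA replicate 1 or 3 or YAP shRNA replicate 3, and NMI without replicate 1 of either group. The mean over probe sets took TRIM25 to 0.016 (limma adjusted p = 0.870), and another probe set of PML, outside the _x_at and _s_at kinds, gave -0.010 (0.931).

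The cells carried the markers of bile duct epithelium, and some markers of other cell types differed between groups. The 6 biliary epithelial markers read 12.5 to 14.2, and KRT19 among them rose by 0.15. Plasmacytoid dendritic cells, the main makers of type I interferon, had 5 markers at 3.15 to 6.56, of which 0 changed by limma, and 0 had an unadjusted p below 0.05. Of 6 measured leukocyte markers, LYZ and CD14 rose by 0.86 and 0.46, PTPRC fell by 0.22 from a dim 3.96 to 3.74, and CD3E, ITGAM and NKG7 were not called, at -0.08, 0.03 and 0.08. Their summed linear level, which weighs the brighter LYZ and CD14 most, was 241 to 281 in control arrays and 325 to 393 with the YAP shRNA. Of 6 fibroblast markers only COL1A1 was called, with a rise of 0.52. COL1A2, COL3A1, DCN, LUM and PDGFRB stood at -0.06, 0.14, -0.0057, -0.18 and 0.16. COL1A1 is the brightest of the 6 and weighs most in their summed level, which was 451 to 504 in control arrays and 560 to 604 with the YAP shRNA. Of 5 endothelial markers 0 changed by limma (1 had an unadjusted p below 0.05). The part of these transcripts in the rises above was not tested. For GAPDH, the gap between the 3' and 5' control probe sets, a sign of RNA quality, lay on the log2 scale between 0.181 and 0.205 in control arrays and between 0.168 and 0.189 with the YAP shRNA. For ACTB the same gap was wider, at 0.883 to 1.10 over the control arrays and 0.964 to 1.16 over the YAP shRNA arrays, and both ranges overlapped between groups.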

How the data were processed

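Expression was measured on 8 single-colour arrays, 4 per group. The authors deposited 1 log2 value per probe set and array (54675 probe sets, values 1.72 to 14.9). The log base was inferred from that range, while how the authors corrected, summarised and normalized the arrays was not given in the sources used here. Array medians lay between 6.22 and 6.25, so nothing further was done. RNA was amplified and biotin-labelled, per the labels' protocols. GEO's platform annotation gave a single symbol to 41097 probe sets, several to 1801 and none to 11777; the single ones were matched by Entrez ID to RefSeq of GRCh38.p14 for 41043. The probe set with the highest mean stood for each of 19775 genes.

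The test was limma 3.58.1 in R 4.3.3 (lmFit, eBayes, no block, no filter on dim genes), YAP shRNA minus control shRNA, with Benjamini-Hochberg adjustment over all genes, and it was tested on simulated data. Dim genes carry no detection call, and the number of arrays limits the precision. Values on other probe sets came from the same fit over all 54675 probe sets. Single values and neighbouring pairs were compared by exact permutation, two-sided. The alternatives were 2 normalizations, 2 limits on dim genes, 3 choices of probe set, 2 spread models, array weights, 2 thresholds, the replicate number as a block, and leaving out each array.

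Genes were named by a rule: YAP1, every measured gene of the set (array values for the 12 largest called changes, the fallen one and the IRFs), the called genes of the pathway lists, and IFNB1, RIGI, CGAS and STING1. Array values of OASL and RSAD2 and the markers named were chosen after their values were seen, as were the motifs, the sequences shown and the neighbouring pairs. The set and the lists were chosen with earlier results of these data known. Same-numbered arrays of the groups did not deviate together. That does not show whether the numbers pair them, and the replicate block was run as an alternative. Figures were drawn with matplotlib 3.10.9.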

Additional observations from a re-analysis of the deposited data

Results flagged for a closer look

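In groups of 4 values for 68 genes (136 groups), 12 had 1 array far from the other 3, where a share of 5% by chance gives about 6.8. Of these, 3 lay in control shRNA replicate 4: IFI44 was high at 10.71 (10.38 to 10.40 in the other control arrays), IRF9 low at 6.61 (6.85 to 6.89) and PTPN6 low at 10.19 (10.52 to 10.57). YAP1 was high at 12.77 in control shRNA replicate 3 (12.59 to 12.61 in the others). Among YAP shRNA arrays, IFIT1 was low at 9.01 in replicate 3 (9.12 in the others), LGALS3BP low at 12.68 in replicate 2 (12.70 to 12.71) and PLSCR1 low at 11.24 in replicate 1 (11.41 to 11.45). IRF2 was high at 11.23 (11.10 to 11.12) and PML low at 9.41 (9.55 to 9.58) in replicate 2. HELZ2 was high at 7.17 in replicate 1 (7.01 to 7.03). APOL6 was high at 10.58 (10.38 to 10.41) and IRF3 low at 10.15 (10.27 to 10.29) in replicate 4.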

How the results depend on the processing

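Over the alternatives run, between 20 and 30 of the measured genes of the set rose, and 1 fell, except that 2 fell with the trended robust spread model, EIF2AK2 being the second. The median log2 fold change was 0.22 when probe sets were averaged per gene, and leaving out each array gave 0.26 to 0.28. Rises among the transcription factors numbered 0 with median centring, the mean of probe sets and no _x_at and _s_at probe sets. They also numbered 0 with every single-symbol probe set tested, the threshold of 0.01 and the replicate block, and 0 to 1 over the arrays left out. Rises below the median level numbered 5 with array weights, 1 at 0.01 and 1 to 4 over the arrays left out. Pathway genes that rose numbered 10 at 0.01 and 11 to 18 over the arrays left out. They numbered 23 to 27 with either limit on dim genes, either spread model, array weights or the threshold of 0.1. Those that fell numbered 0 at 0.01, 1 with the mean of probe sets and up to 3 in other settings. Without genes under the median level 1 fell, which was neither IFNK nor JAK2. Their mean levels of 5.68 and 7.25 took both out of that test. Over all genes 1022 rose and 763 fell at 0.01, and 2541 rose and 1973 fell at 0.1.

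The replicate numbers are shared by the groups, but the correlations of same-numbered arrays' deviations were -0.17, -0.0588, 0.00203 and -0.206. With the replicate block 1222 genes rose and 884 fell, 20 of the 45 genes of the set rose and 1 fell, 1 rose below the median level, and 11 pathway genes rose and 1 fell.

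Without _x_at and _s_at probe sets PLSCR1 stood at -0.23 and PML at -0.010, each on another probe set than before. Among genes not called, IFI6 stood at 0.0060 with array weights. Over the arrays left out RSAD2 ranged from -0.016 to 0.35, EPSTI1 from -0.0020 to 0.12, HERC5 from -0.021 to 0.11 and CGAS from -0.038 to 0.023. Averaging probe sets per gene ended the calls on GBP2, HERC6, OAS3, PLSCR1, SP110, IFNLR1, JAK2 and TRIM25. Removing _x_at and _s_at probe sets ended the calls on PARP9, PLSCR1, PML, NMI and IFNLR1. Testing all 41097 single-symbol probe sets ended those on SP110, IFNLR1, IRF2, NMI and PML, and median centring those on SP110 and IRF2. In the fit over all 54675 probe sets IFI44L did not pass either (limma adjusted p = 0.05645). Array weights added calls on OASL, MX1 and TRIM22, and leaving out genes under the median level one on MX1. Where a call or count changed among genes still tested, the cause was not tested. Dim genes could not be told from background, since the values carry no detection call.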
